A study of Ovis aries with 23 samples.

Results

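CEACAM1 mRNA was described in lung tissue of 23 sheep with acute respiratory distress syndrome (ARDS), as 1 of 20 features of a custom nCounter panel. The feature was T005 of the deposited table, taken as CEACAM1 because it stood at the place of this gene in the probe table of the supplement. No table used here pairs features with genes, so the names below rest on this order. The features at the places of ZDHHC19 and RBP7 had the lowest median counts, 7 and 8, against 22 or more for every other feature. The study left out RBP7 for low counts together with a gene it names ZDHHC18, whereas the probe table lists ZDHHC19, so this bears on the order without settling it. CEACAM1 was singled out because its mean was lower in phenotype 2, while the panel lists it among genes higher in leukocytes of the human hyperinflammatory subphenotype (P2). Its difference between the phenotypes is therefore a description with no test.

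The animals were female Merino-Dorset crossbreed sheep aged 1 to 3 years, anesthetized and mechanically ventilated. Phenotype 1 (Ph1, hypoinflammatory, n = 14) had lung injury from intravenous oleic acid, and phenotype 2 (Ph2, hyperinflammatory, n = 9) from the same oleic acid followed by intravenous lipopolysaccharide. Both groups thus carry the oleic acid injury, and no uninjured animal was analysed here. All were control animals of a pair of trials, 12 from CELTIC and 11 from STARDUST. Tissue was taken at 6 h (5 Ph1 and 3 Ph2 animals), 12 h (4 and 3) or 24 h (5 and 3). All 8 animals at 24 h and 1 Ph1 animal at 6 h (SD6) came from STARDUST, as did 2 Ph2 animals at 12 h (SD4 and SD13). Per the methods, RNA of the upper, middle and lower right lobe was pooled, which gives 1 value per animal. The methods set a lower limit of RNA integrity, and the upper lobe of SD4 and of C19, a Ph1 animal at 12 h, fell below it. Whether their pools held this lobe is not stated. The panel holds no gene that defines lung tissue, so the label could not be checked against such markers.

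CEACAM1 encodes a cell surface glycoprotein of the immunoglobulin superfamily. It binds to itself and to related molecules on neighbouring cells, and its longer form carries inhibitory motifs in the cytoplasmic tail that recruit phosphatases. It is known from epithelium, endothelium and leukocytes. Neutrophils hold it in granules and bring it to the surface when activated. In whole lung tissue, fewer cells of a type that expresses the gene and less mRNA per cell cannot be told apart.

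Each transcript was counted by hybridization to a single probe pair, which is shown here because all CEACAM1 values below rest on it. In probe B, lower case marks the 25 bases shared by the start of all 22 probes B of the table, and capitals mark the 49 bases that remain. In probe A the boundary between target part and tag is not given in the sources used here, so it is printed without capitals.
CEACAM1 probe A: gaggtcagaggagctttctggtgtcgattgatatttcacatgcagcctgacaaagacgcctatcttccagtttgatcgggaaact
CEACAM1 probe B: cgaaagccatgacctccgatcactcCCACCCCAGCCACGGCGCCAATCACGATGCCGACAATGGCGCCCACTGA
The capital part of probe B had a G and C content of 67.3%, the highest of the 22 probes B (median 50%, lowest 34%). The transcript accession of the probe pair belongs to CEACAM1 in the RefSeq annotation of ARS-UI_Ramb_v3.0, which lists 24 transcripts for the gene, 12 of them mRNA models. Which of these transcripts the pair counts was not determined.

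The values are log2 normalized counts, so a difference of 1 is a change of 2-fold. Unlogged values of an animal were whole numbers times 1 factor, and the smallest whole numbers that fit gave between 728 and 1943 counts for CEACAM1 (median 1313). At 728 counts, the lowest, the exact 95% Poisson interval reached from -0.11 to 0.10 around the log2 value. Counting error was therefore smaller than the SD of 0.29 between animals within phenotypes. That SD was the second smallest of the 20 features, whose SDs ran from 0.25 to 2.10 with a median of 0.64.

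CEACAM1 was 10.40 ± 0.27 in Ph1 (SD, n = 14), with a lowest value of 9.84, a median of 10.48 and a highest value of 10.74. In Ph2 it was 10.03 ± 0.33 (SD, n = 9), with a lowest value of 9.53, a median of 10.03 and a highest value of 10.49. The mean was lower in Ph2 by 0.37 on the log2 scale, a ratio of 0.774. The groups overlapped. G33, SD13 and SD9 of Ph2 lay below the lowest Ph1 animal, and 7 Ph1 animals lay above the highest Ph2 animal. Of the 126 pairs of 1 Ph2 and 1 Ph1 animal, the Ph2 animal was the lower one in 105. In units of the SD within phenotypes the difference was -1.26, with its sign the lowest of the 20 features, while GPR84 had 1.31 in the other direction. By absolute size on the log2 scale CEACAM1 ranked at place 10. CEACAM1 made up 7.22% of the recovered counts in the mean of the Ph1 animals and 5.88% in the mean of the Ph2 animals.

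At 6 h the Ph1 animals C2, C11, C3, SD6 and C1 had CEACAM1 at 10.74, 10.66, 10.63, 10.40 and 10.32. The Ph2 animals C5, C4 and G33 had 10.49, 10.37 and 9.78. C5 and C4 lay within the Ph1 range and G33 far below it. The mean was 10.55 ± 0.18 in Ph1 (SD, n = 5) and 10.22 ± 0.38 in Ph2 (SD, n = 3), and the difference of -0.34 shrank to -0.12 without G33.

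At 12 h the Ph1 animals C17, C19, C18 and C21 had CEACAM1 at 10.51, 10.50, 10.47 and 9.84. The Ph2 animals G34, SD4 and SD13 had 10.14, 10.03 and 9.53. The 3 Ph2 animals all lay below the 3 higher Ph1 animals, and C21 lay between SD4 and SD13. The mean was 10.33 ± 0.33 in Ph1 (SD, n = 4) and 9.90 ± 0.33 in Ph2 (SD, n = 3). The difference was -0.43 and -0.24 without SD13. All Ph1 animals here were CELTIC animals, and SD4 and SD13 were STARDUST animals, so phenotype and study are largely mixed at this time point.

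At 24 h the Ph1 animals SD1, SD14, SD7, SD2 and SD10 had CEACAM1 at 10.56, 10.54, 10.38, 10.16 and 9.92. The Ph2 animals SD11, SD8 and SD9 had 10.34, 9.92 and 9.67. SD11 lay among the middle Ph1 animals, SD8 level with the lowest, and SD9 below all of them. The mean was 10.31 ± 0.27 in Ph1 (SD, n = 5) and 9.98 ± 0.34 in Ph2 (SD, n = 3), a difference of -0.33. It was -0.18 without SD9 and -0.51 without SD11.

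**Figure D1:**
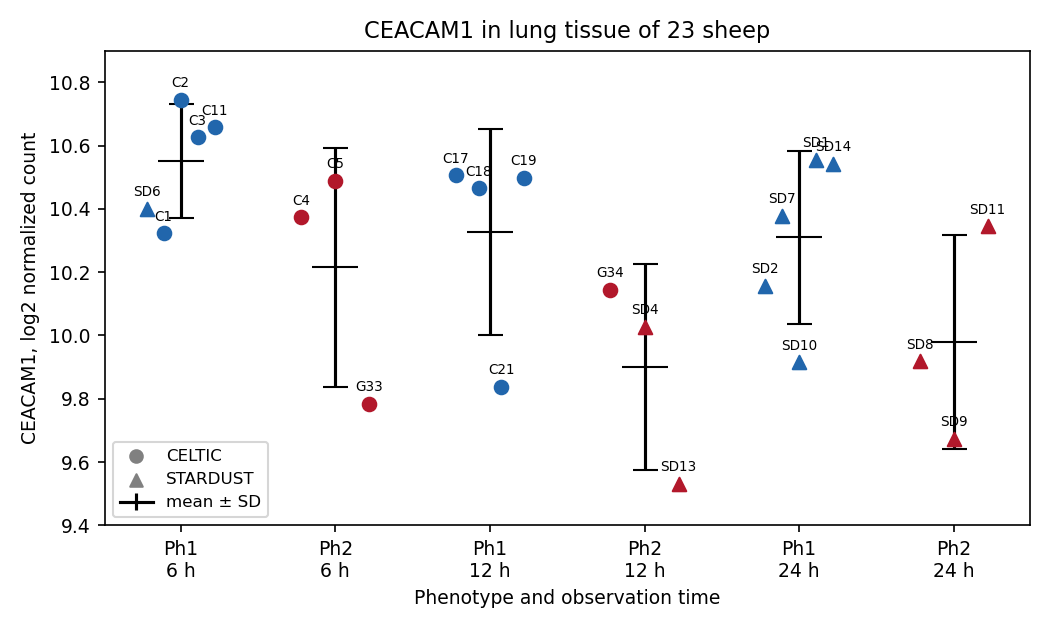
CEACAM1 (log2 normalized count) in each of the 23 sheep by phenotype and observation time; circles are CELTIC and triangles STARDUST animals, horizontal marks and bars the mean and SD of each group. The Ph2 mean lies below the Ph1 mean at 6, 12 and 24 h, and the animals of the phenotypes overlap at each of them.

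CEACAM1 was lower in Ph2 in the mean at all 3 time points. Of the 20 features, 4 (20%) were lower in Ph2 at all of them and 8 (40%) had a single sign at all of them. Since CEACAM1 was chosen for this contrast, nothing is read from that share. Whether the difference varied with time was tested separately. For CEACAM1 the phenotype by time interaction, fitted with limma over all 20 features, had a Benjamini-Hochberg adjusted p = 0.957. Of all features, 0% passed this test at an adjusted p below 0.05, and 1 of 20 (5%) did at an unadjusted p below 0.05. The difference between phenotypes at 12 h minus that at 6 h was -0.091 (95% CI -0.84 to 0.66), and that at 24 h minus that at 6 h was 0.0048 (95% CI -0.72 to 0.73). These intervals are wider than the difference itself, so changes over time of that size were not detectable with these animals.

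Ordered by mean, CEACAM1 fell from Ph1 at 6 h through Ph1 at 12 h, Ph1 at 24 h, Ph2 at 6 h and Ph2 at 24 h to Ph2 at 12 h. All 5 steps between neighbours, 0.017 to 0.24 in size, were smaller than the larger of their SDs. The step from Ph1 at 6 h to Ph1 at 12 h, of 0.22, was larger than the SD of 0.18 at 6 h but smaller than that of 0.33 at 12 h.

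Within Ph1, time points did not differ beyond the spread between animals (two-sided exact permutation Kruskal-Wallis test over 252252 arrangements, p = 0.335, adjusted p = 0.515 over 20 features). By the same test, 15% of the 20 features had an adjusted p below 0.05 within Ph1: TCN1, a vitamin B12 binding protein of neutrophil granules, MME, a membrane peptidase, and T037. All Ph1 animals at 12 h were CELTIC and all at 24 h STARDUST animals, so time and study are largely mixed in this test. Within Ph2, p was 0.511 for CEACAM1 (exact, adjusted p = 0.730), where 0% of the features had an adjusted p below 0.05 and 5% an unadjusted p below 0.05. With phenotype in a limma model, CEACAM1 at 12 h minus 6 h was -0.26 (95% CI -0.61 to 0.084), at 24 h minus 6 h -0.24 (95% CI -0.57 to 0.093) and at 24 h minus 12 h 0.022 (95% CI -0.32 to 0.37). A fall after 6 h of the size of the difference between phenotypes thus lies within these intervals. Study was not in this model, and the 24 h animals were all STARDUST, so the comparisons with 24 h may hold study as well.

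The labels name the study of each animal. Among CELTIC animals, CEACAM1 was 10.46 ± 0.28 in Ph1 (SD, n = 8) and 10.20 ± 0.31 in Ph2 (SD, n = 4), a difference of -0.26. Without G33 it was -0.12. Among STARDUST animals it was 10.32 ± 0.25 in Ph1 (SD, n = 6) and 9.90 ± 0.32 in Ph2 (SD, n = 5), a difference of -0.43. How far the phenotype difference varied with study was estimated by limma at -0.17 (95% CI -0.74 to 0.41, adjusted p = 0.803), and 0 of 20 features (0%) had an adjusted p below 0.05, 1 an unadjusted p below 0.05. Time point was not in this model. Within each study the time points were spread unevenly between the phenotypes, so these differences and their comparison may hold time as well.

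With phenotype and time point in the limma model, CEACAM1 in STARDUST minus CELTIC animals was -0.22 (95% CI -0.66 to 0.23, adjusted p = 0.498), with 0% of features below an adjusted p of 0.05 and 1 below an unadjusted p of 0.05. That comparison rests on 6 and 12 h, since the 24 h group is all STARDUST, where study and this time point cannot be told apart. At 6 h the only STARDUST animal, SD6, had CEACAM1 at 10.40, inside the range of 10.32 to 10.74 of the 4 CELTIC animals of Ph1. At 12 h the only CELTIC animal of Ph2, G34, was the highest of its group, at 10.14.

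The difference between phenotypes kept its sign under each normalization tried, but its size at single time points did not. The deposited values refer to housekeeping genes chosen by the authors. After subtracting the median of the other 19 features from each animal, the difference over all animals was -0.47, and centred on the mean of T036 to T039, which have no gene name here, it was -0.49. These reference levels were themselves higher in Ph2 by 0.10 and 0.12 in the deposited values. With centring on the other features, the 6 h animals gave -0.90, the 12 h animals -0.43 and the 24 h animals -0.037. The median of the other features differed between phenotypes by 0.56, 0.0018 and -0.29 in the same order. Most of these features were picked as markers that differ between human subphenotypes, so their median is not a neutral reference. Centred on T036 to T039, the time points gave -0.39, -0.61 and -0.48. Among CELTIC animals the difference was -0.66 with the first centring and -0.43 with the second.

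**Figure D2:**
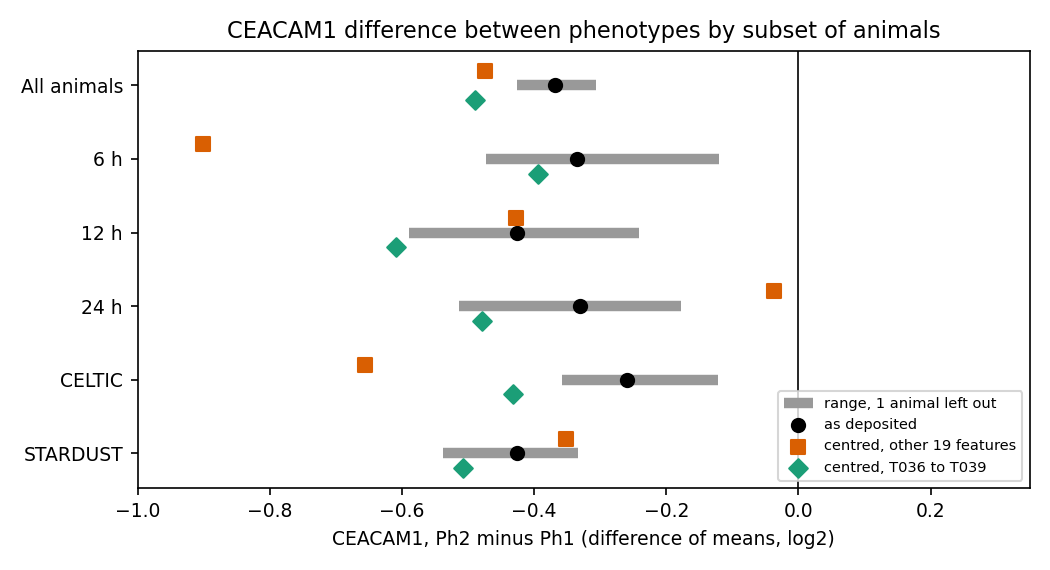
Difference of CEACAM1 means, Ph2 minus Ph1 (log2), for all animals, each time point and each study. Black circles are the deposited values, grey bars the range with 1 animal left out in turn, squares and diamonds the values after centring each animal; all lie below 0, and centring on the other 19 features spreads the time points from -0.90 at 6 h to -0.037 at 24 h.

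The recovered counts of the 20 features summed to between 13871 and 34415 per animal. The median Ph1 animal had 20457 and the median Ph2 animal 19320. They were lower in CELTIC (13871 to 22070) than in STARDUST animals (17798 to 34415) by their medians of 16183.5 and 21902. Within phenotypes, animals with a higher total had lower CEACAM1 by rank. Over deviations of the 23 animals from their phenotype mean, Pearson r with the log2 total was -0.38 (p = 0.0695) and Spearman rho -0.50 (p = 0.0160), two-sided with 100000 permutations of animals within phenotypes. Adjusted over the 9 relations to the total that were computed, these p were 0.156 and 0.0775.

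Within Ph1, r was -0.21 and rho -0.36 (p = 0.461 and 0.209, permutation test, n = 14). Within Ph2, r was -0.70 and rho -0.78 (p = 0.0399 and 0.0172, exact over all pairings, n = 9, adjusted p = 0.120 and 0.0775). Within studies, r was near 0 in CELTIC (-0.036, p = 0.916) and of similar size to the pooled value in STARDUST animals (-0.43, p = 0.195, permutation tests), and passed the test in neither. Without the animals farthest from the median total, SD2 and C4, r was -0.28 (p = 0.222, permutation test), so it rests in part on them. With the log2 total as a covariate, the difference between phenotypes was -0.43 in place of -0.37. The total sums the panel features, CEACAM1 included, and MME alone made up 32.7% of it in the mean of Ph1 animals. It thus holds expression as well as depth, and an effect of depth alone was not tested.

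**Figure D3:**
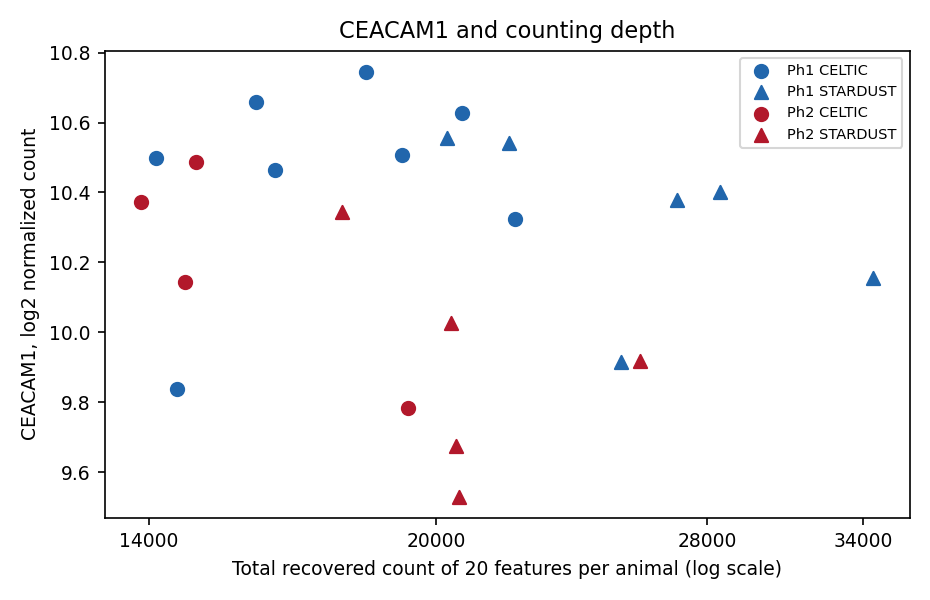
CEACAM1 (log2 normalized count) against the total recovered count of 20 features per animal (log scale), by phenotype (colour) and study (symbol). Among Ph2 animals the 3 with the lowest totals, C4, G34 and C5, have CEACAM1 between 10.14 and 10.49, and STARDUST animals lie to the right of most CELTIC animals.

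CEACAM1 was then set against the marker rows of neutrophils and of epithelium on the panel. MMP8 (neutrophil collagenase), OLFM4 (olfactomedin 4, made by a subset of neutrophils) and CD177 (a surface protein of a neutrophil subset) stand for neutrophils. MME (neprilysin, CD10) was taken as the epithelial row, but mature neutrophils and stromal cells express it too. MMP8 ran from 3.38 to 5.99 in Ph1 (median 4.22) and from 3.52 to 7.28 in Ph2 (median 5.09). OLFM4 had the widest ranges, 2.11 to 7.95 in Ph1 (median 4.64) and 2.52 to 10.64 in Ph2 (median 7.15). CD177 ran from 3.00 to 4.96 in Ph1 (median 4.30) and from 2.75 to 5.13 in Ph2 (median 4.74). For MME, which was by contrast abundant, the range was 11.30 to 13.29 in Ph1 (median 12.70) and 10.77 to 12.87 in Ph2 (median 12.07). The phenotypes overlapped in all of these rows. Counts as low as 11 for MMP8, 4 for OLFM4 and 6 for CD177 limit their precision. Below 8 counts were OLFM4 in C18, SD11 and SD8 (4, 6 and 7) and CD177 in SD11 (6). The median count was 8 for the feature at the place of RBP7, which the study left out for low counts. Whether these OLFM4 and CD177 values stand above background was not tested.

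None of the 4 rows had a relation to CEACAM1 within phenotypes that passed the test. With deviations from the phenotype means over all 23 animals, Pearson r was 0.080 for MMP8 (Spearman rho 0.13), 0.068 for OLFM4 (rho 0.15), -0.065 for CD177 (rho -0.067) and -0.067 for MME (rho -0.11). Unadjusted p lay between 0.743 and 0.785 for r and between 0.514 and 0.768 for rho, and adjusted p was 0.863 and 0.868 for all 4 (two-sided, 100000 permutations within phenotypes, Benjamini-Hochberg adjustment over 19 features). Across the panel, 0% of the 19 other features had an adjusted p below 0.05 and 0 an unadjusted p below 0.05 for Pearson r. All features of an animal share its normalization factor, which bears on every one of these relations.

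Within Ph1 alone, r was 0.32 for MMP8, 0.29 for OLFM4, 0.14 for CD177 and -0.40 for MME (permutation test, p = 0.260, 0.320, 0.642 and 0.157, n = 14). Within Ph2 alone, r was -0.066, -0.12, -0.27 and 0.32 in the same order (exact p = 0.864, 0.758, 0.511 and 0.415, n = 9). The signs of Pearson r were thus opposite in the phenotypes for all 4, but no value passed the test and the difference between phenotypes was not tested. Opposite signs were also common among the other features and are not particular to these rows. Examples were TCN1 (0.44 in Ph1, -0.22 in Ph2) and GPR84 (0.36 and -0.099), whereas LCN2 and T039 kept their sign. By Spearman rho in Ph2 the sign turned for MMP8 (0.050) and OLFM4 (0.17), and stayed for CD177 (-0.18) and MME (0.30).

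Within studies, r was 0.0030 for MMP8, -0.061 for OLFM4, 0.20 for CD177 and -0.21 for MME in CELTIC animals (n = 12). In STARDUST animals it was -0.26, -0.28, -0.64 and 0.32 in the same order (n = 11), the lowest p being 0.0584 for CD177 (permutation test, adjusted p = 0.464). Without the 2 animals farthest from the median of the respective row, r was 0.088 for MMP8 (SD9 and C5 left out), 0.21 for OLFM4 (G33 and C18), 0.12 for CD177 (SD11 and SD7) and -0.17 for MME (SD9 and C11). For CD177 the sign turned.

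**Figure D4:**
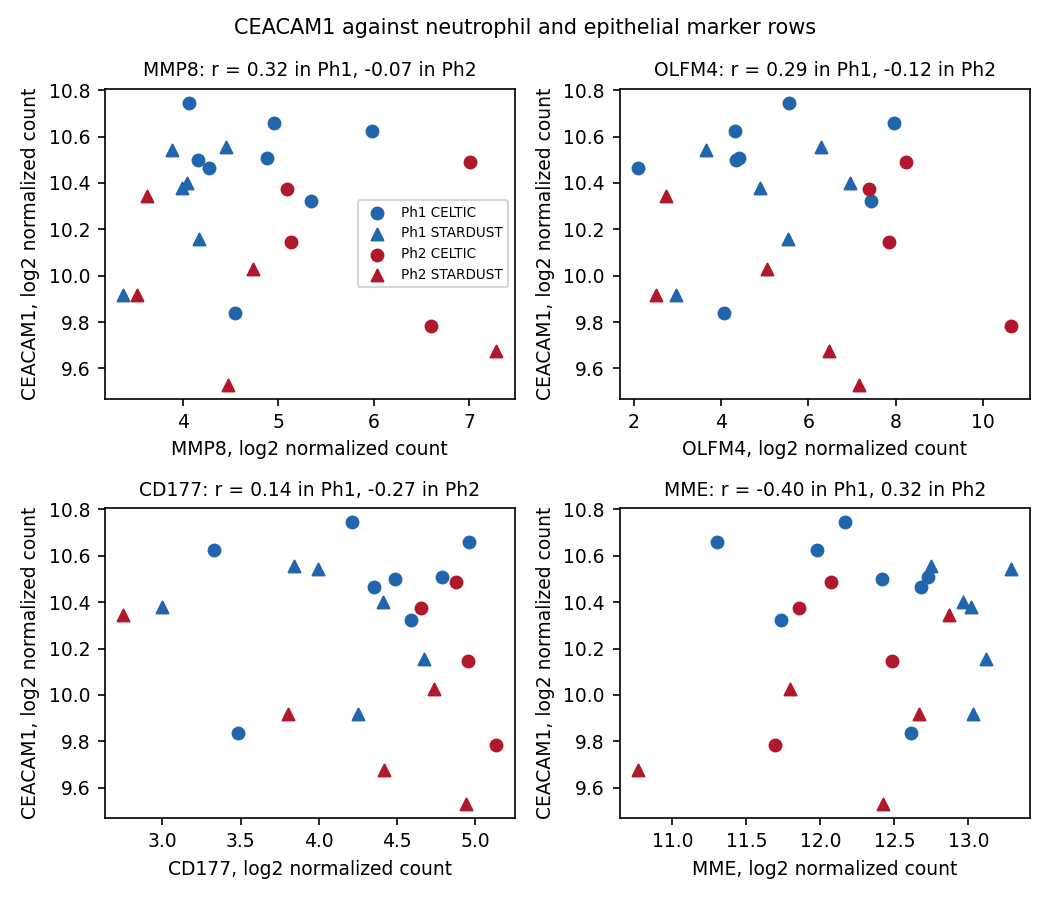
CEACAM1 against MMP8, OLFM4, CD177 and MME (all log2 normalized counts) in 23 sheep, by phenotype (colour) and study (symbol), with Pearson r within each phenotype above each panel. G33, SD9 and SD13 of Ph2, the 3 lowest CEACAM1 values, lie at 6.60, 7.28 and 4.47 for MMP8, so low CEACAM1 occurred at high and at middle MMP8.

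The animals with the lowest CEACAM1, G33, SD9 and SD13, differed in MMP8 and MME. Their OLFM4 and CD177 all lay above the Ph1 medians of 4.64 and 4.30. The same held for C4, C5, G34 and SD4, thus for every Ph2 animal but SD8 and SD11, and is not particular to low CEACAM1. G33 combined CEACAM1 at 9.78 with the highest OLFM4 (10.64) and CD177 (5.13) of all animals. SD9 combined CEACAM1 at 9.67 with the highest MMP8 (7.28) and the lowest MME (10.77) of all animals, with OLFM4 at 6.47 and CD177 at 4.42. In SD13, with the lowest CEACAM1 at 9.53, MMP8 was 4.47 and MME 12.43, both within the Ph1 range. Its OLFM4 was 7.15 and its CD177 4.94, close to the highest Ph1 value of 4.96. C5 had OLFM4 at 8.22 and more MMP8 than any animal but SD9, and yet the highest CEACAM1 of Ph2, 10.49.

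By Pearson r, the features with the pattern most like CEACAM1 within phenotypes were T039 (r = 0.41), ADGRE3 (0.21), an adhesion receptor of myeloid cells, and HAL (0.19), histidine ammonia-lyase. Most unlike it were LCN2 (-0.37), the iron-siderophore binding protein lipocalin 2, T036 (-0.34) and RETN (-0.30), resistin. These values describe likeness over 23 animals. By Spearman rho the order differed in part, with 0.37 for T039, 0.24 for HAL, 0.21 for TCN1 and 0.064 for ADGRE3. LCN2 (rho -0.46) had an unadjusted p of 0.0337 and an adjusted p of 0.640 (permutation test). T039 and LCN2 had the same sign in Ph1 (0.34 and -0.36) and in Ph2 (0.47 and -0.40), whereas for ADGRE3 it was 0.39 and -0.041.

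As a list, the neutrophil granule genes MMP8, OLFM4, LCN2, TCN1, CD177 and RETN had 3 positive and 3 negative correlations with CEACAM1 within phenotypes. Of these, 0 passed the test. Their median was 0.0013, and the median of all 19 features 0.050. Ph1 means of the listed genes ran from 4.17 for CD177 and 4.44 for MMP8 to 10.94 for TCN1 and 11.56 for LCN2. Which cells of the tissue these counts came from was not determined. Over all animals the means of all 6 genes were higher in Ph2, by a median of 0.26, where 11 of all 20 features were higher, with a median of 0.068. For RETN (0.06) and LCN2 (0.08) the differences were small. At 24 h only MMP8 and TCN1 of the 6 were higher in Ph2, and the median was -0.24. For MMP8 the higher mean rested on SD9 (7.28), as SD8 (3.52) and SD11 (3.63) lay below the Ph1 median of 3.995. The membrane and matrix genes MME, TGFBI, an extracellular matrix protein, and SULF2, a heparan sulfate sulfatase, had means lower in Ph2, as had 9 of all 20 features, CEACAM1 included, by a median difference of -0.44. At 24 h that median was -0.046. Their correlations with CEACAM1 within phenotypes had a median of 0.039, 2 positive and 1 negative.

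**Figure D5:**
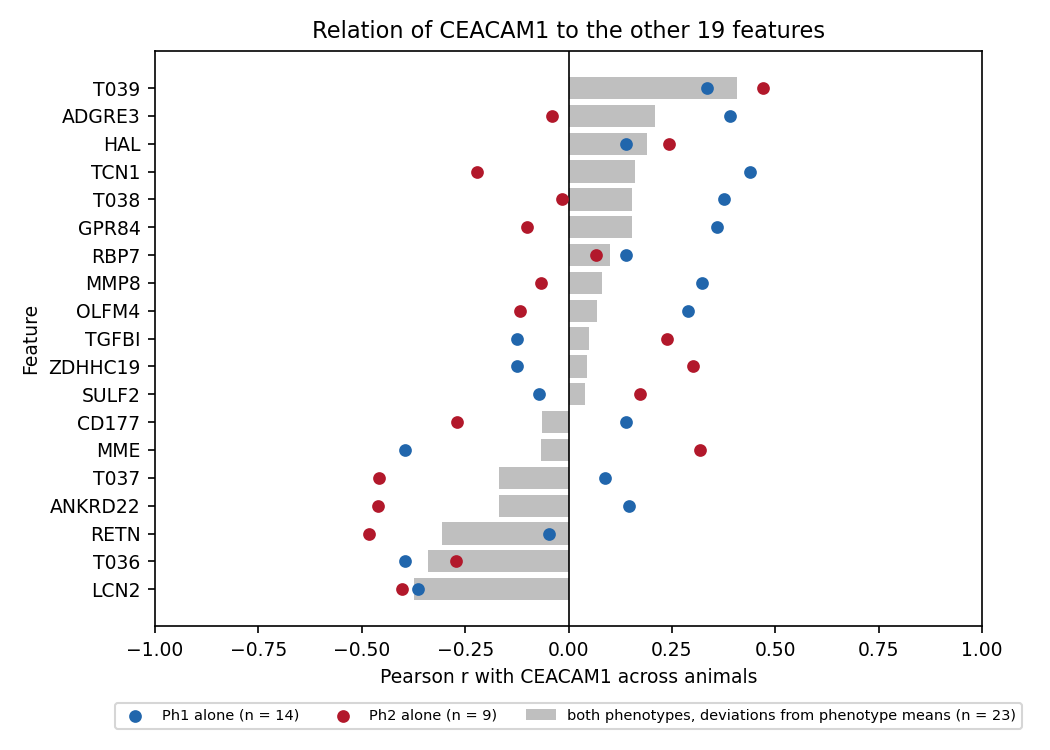
Pearson r of CEACAM1 with each of the other 19 features across animals; grey bars use deviations from the phenotype means of all 23 animals, blue and red points Ph1 and Ph2 alone. Bars run from -0.37 for LCN2 to 0.41 for T039. For MMP8, OLFM4, CD177 and MME the Ph1 and Ph2 points lie on opposite sides of 0, as they do for other features such as TCN1 and GPR84.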

How the data were processed

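The deposited table holds 20 features in 23 animals as log2 normalized counts. Per the methods, the authors subtracted background (mean of negative controls plus 2 SDs) and scaled each animal to 3 housekeeping genes by their geometric mean. Negative controls were not analysed here, so the background cannot be checked. The unlogged values of each animal fit whole numbers times a common factor, and whether they hold this subtraction was not determined. Groups came from the sample labels. Members and lists were chosen with earlier results of these data known. The 4 marker rows and the 3 features most and least like CEACAM1 are named, and the relation to the total count was added after the values were seen.

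For each animal the smallest set of whole counts that fits its unlogged values was taken, within a tolerance of 0.0001. Intervals from them cover counting error only. A wrong common factor would scale an animal's total. Time points were compared by exact permutation Kruskal-Wallis tests, interactions and study with limma on all 20 features, and relations by permutation within phenotypes, each with Benjamini-Hochberg adjustment and tested on simulated data. Animals are the replicates. RNA integrity was not used here. Per the supplement it was mostly higher in STARDUST than in CELTIC animals. In each lobe of G33 it was higher than in the other CELTIC animals. Whether it moves with CEACAM1 was not tested. Alternatives covered scale, centring, blocks, subsets, low values and each animal left out. Tools were Python 3.11.15 with numpy 2.4.6, scipy 1.17.1, pandas 2.3.3 and matplotlib 3.10.9, and limma 3.58.1 in R 4.3.3.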

Additional observations from a re-analysis of the deposited data

Results flagged for a closer look

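CEACAM1 and the 4 marker rows were each screened in the 3 Ph1 time points and in all Ph2 animals together, 20 groups in all. In 2 of them Dixon's ratio set 1 animal apart, where chance gives about 1 in 20. C21, a Ph1 animal at 12 h, had CEACAM1 at 9.84 against 10.47 to 10.51 in the other 3, from 819 counts. In the same group C18 had OLFM4 at 2.11 against 4.07 to 4.40, from 4 counts. That count lies below the median of 8 of the feature at the place of RBP7, and whether it stands above background was not tested. Without C21 the difference between phenotypes at 12 h was -0.59 in place of -0.43.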

How the results depend on the processing

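No paired analysis was possible because every animal belongs to a single group. The difference of CEACAM1 between phenotypes over all animals was -0.37 and kept its sign under all alternatives, between -0.49 and -0.33, and between -0.43 and -0.31 with each animal left out. Centring on the median of the other features moved it from -0.34 to -0.90 at 6 h, from -0.33 to -0.037 at 24 h and from -0.26 to -0.66 in CELTIC animals, and turned the interaction with study from -0.17 to 0.30; the cause was not tested. None of the tests of time, study and the 4 marker rows reached an adjusted p below 0.05 under any alternative (lowest 0.112, for MME centred on the median of the other features). The lowest for the relation to the total was 0.0775.

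Relations to the 4 rows, all near 0, changed sign often. With deviations from phenotype and time point means, r was -0.17 for MMP8, -0.30 for OLFM4 and 0.21 for MME, and with phenotype and study means -0.14, -0.16 and 0.063. In STARDUST animals r was -0.26 for MMP8, -0.28 for OLFM4 and 0.32 for MME, and in CELTIC animals -0.061 for OLFM4 and 0.20 for CD177. It was -0.066, -0.12 and 0.32 for MMP8, OLFM4 and MME in Ph2, and 0.14 for CD177 in Ph1. Centred on T036 to T039, r was -0.079 for MMP8, -0.11 for OLFM4, 0.053 for CD177 and 0.29 for MME. Centred on the other features it was 0.25 for CD177 and 0.47 for MME (unadjusted p = 0.0477, permutation test over 23 animals). For CD177 it was 0.12 without the 2 farthest animals and 0.022 with low values raised. With each animal left out, r lay between -0.073 and 0.25 for MMP8, -0.017 and 0.19 for OLFM4, -0.19 and 0.11 for CD177, and -0.25 and 0.031 for MME. The sign turned without C5 or SD10 for MMP8 and OLFM4, without SD13 or SD11 for CD177, and without C11 for MME. The cause was not tested. Low counts of OLFM4, CD177 and MMP8, and 9 Ph2 animals, limit these relations.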
